A study of Drosophila melanogaster and Drosophila simulans and Drosophila yakuba with 12 samples.

Results

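Male white prepupae of Drosophila simulans and D. yakuba were compared by small RNA sequencing of the whole body. They were collected within 1 h of puparium formation, when the larval skin hardens and metamorphosis begins. The samples were chosen by their labels and make up 4 of the 12 samples of the series. The D. simulans group (strain 14021-0251.167) and the D. yakuba group (strain 14021-0261.00) each hold 1 total RNA that was made into 2 technical libraries, so every difference below is between 1 RNA and 1 RNA. Library 1 of both species was in 1 preparation pool (pool 1 here) and library 2 of both in another (pool 2), and species were compared within a pool. Libraries of a pool, taken from the shared prefix of their names, were joined after the 5′ adaptor, whose last bases are the index and abut the small RNA, had been ligated. In pool 1 the 5′ index was GACT for D. simulans and CGAT for D. yakuba, and in pool 2 it was ACTG for D. simulans and TGAC for D. yakuba, so species and index cannot be told apart within a pool. Larvae of both species, 1 male RNA each taken 18 h before puparium formation, were pooled with the pool 2 libraries but carried the index pair of pool 1.

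A microRNA (miRNA) is cut from a hairpin precursor as a duplex of a 5p and a 3p arm, and the arm loaded into an Argonaute protein pairs with messenger RNAs through its seed, bases 2 to 8. The set of arms counted here is that of the 62 miRNA names with a hairpin record in both species, 124 arms in all. The steroid hormone ecdysone peaks at puparium formation in flies and drives the transition of larval tissues, and in D. melanogaster let-7 and miR-125 are switched on with it. Whole bodies mix all tissues, and fewer cells of a type cannot be told apart from less RNA in each cell.

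The sequences below belong to the arms on which the comparison turned. They were taken from the deposited alignments as the most frequent read of each species, unless a line says annotated, which is the deposited mature annotation. Capitals mark bases 2 to 8. The first set holds 5 of the arms that differed in the same direction in both pools, chosen as pairs of shared seed and for the start of miR-33-5p, with the 22-base and 20-base forms of miR-276a-3p shown for each species.
miR-33-5p, both species: gUGCAUUGuagucgcauuguc
miR-33-5p, annotated in both species: aGGUGCAUuguagucgcauug
miR-276a-3p, D. simulans: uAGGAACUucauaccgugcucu
miR-276a-3p, D. yakuba: uAGGAACUucauaccgugcu
miR-276b-3p, D. simulans: uAGGAACUuaauaccgugcucu
miR-92a-3p, both species: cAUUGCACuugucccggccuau
miR-92b-3p, both species: aAUUGCACuagucccggccu
The second set holds both arms of miR-305, 1 of 5 miRNAs whose annotated mature sequence differs between the species, since its counts depended on the record used.
miR-305-5p, annotated in D. simulans: aUUGUACUucaucagugcucug
miR-305-5p, annotated in D. yakuba: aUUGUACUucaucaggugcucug
miR-305-3p, D. simulans: cGGCACAUgcugaaguacacuca
miR-305-3p, D. yakuba: cGGCACAUguugaaguacacuca
The miR-276a and miR-276b 3p arms share a seed, as do the miR-92a and miR-92b 3p arms. The reads of miR-33-5p began 2 bases after the annotated start in all 4 libraries (100% of 812, 52, 101 and 3 reads, D. simulans libraries first), so the seed read here is not the annotated one.

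The sequences themselves were nearly the same in the 2 species. Of 43 arms with reads in both, the most frequent read was identical in 31, differed only in its 3′ end in 10, and differed otherwise in 2 (miR-305-3p and miR-281-5p). The first 8 bases were the same in 42 of them, all but miR-281-5p. That arm had 3 and 0 D. simulans reads on its own hairpin record, against 202 and 18 on that of D. melanogaster. Its difference in sequence therefore cannot be told apart from one of the record. miR-305-5p is not among the 43, having no D. simulans read on its own hairpin. Among the 62 annotated mature sequences, 57 were identical, as were 21 of the 62 hairpins. The miR-305-3p reads differed by C10U, with the D. simulans base first and positions counted from the 5′ end.

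Depth differed widely. Reads on the shared arms numbered 22536 and 4785 in the D. simulans libraries and 21608 and 1419 in the D. yakuba libraries. A count of 0 therefore allows a share of up to 0.0133% and 0.0627% in the D. simulans libraries and 0.0139% and 0.211% in the D. yakuba libraries, from 3 reads, which covers counting error only. Of the 124 arms, 38 had no read, 42 had 1 to 19 reads over the 4 libraries, and 44 had at least 20. These 44 held at least 99.0% of the reads of every library and are described from here on. Levels were scaled with TMM factors, and differences are log2 of D. simulans over D. yakuba with 0.5 reads added.

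Few differences held in both pools. At least 2-fold differences were seen in pool 1 for 10 arms higher (22.7%) and 16 lower (36.4%) in D. simulans, and in pool 2 for 11 higher (25%) and 15 lower (34.1%). Of the 44 arms, 18 had the same sign in both pools (40.9%), 9 higher (20.5%) and 9 lower (20.5%) in D. simulans, and 26 had opposite signs. At least 2-fold differences in both pools were seen for 3 arms higher (6.82%) and 7 arms lower (15.9%) in D. simulans, while 9 arms differed at least 2-fold in opposite directions. Among the 9, bantam-5p had no read in pool 2, so its sign there follows from depth and the 0.5 reads added. Only miR-7-5p and miR-10-3p among them had 95% counting intervals off a ratio of 1 in both pools. The median size of the difference between species was 1.09 in pool 1 and 1.26 in pool 2 on the log2 scale. The median size of the difference between the 2 libraries of 1 RNA was 1.58 in D. simulans and 0.84 in D. yakuba. The differences in pool 1 and pool 2 correlated with a Pearson r of 0.339 over the 44 arms, and of −0.139 over 41 arms once those of miR-305 and miR-281 were left out. Both values describe arms of the same 4 libraries and carry no p.

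**Figure D1:**
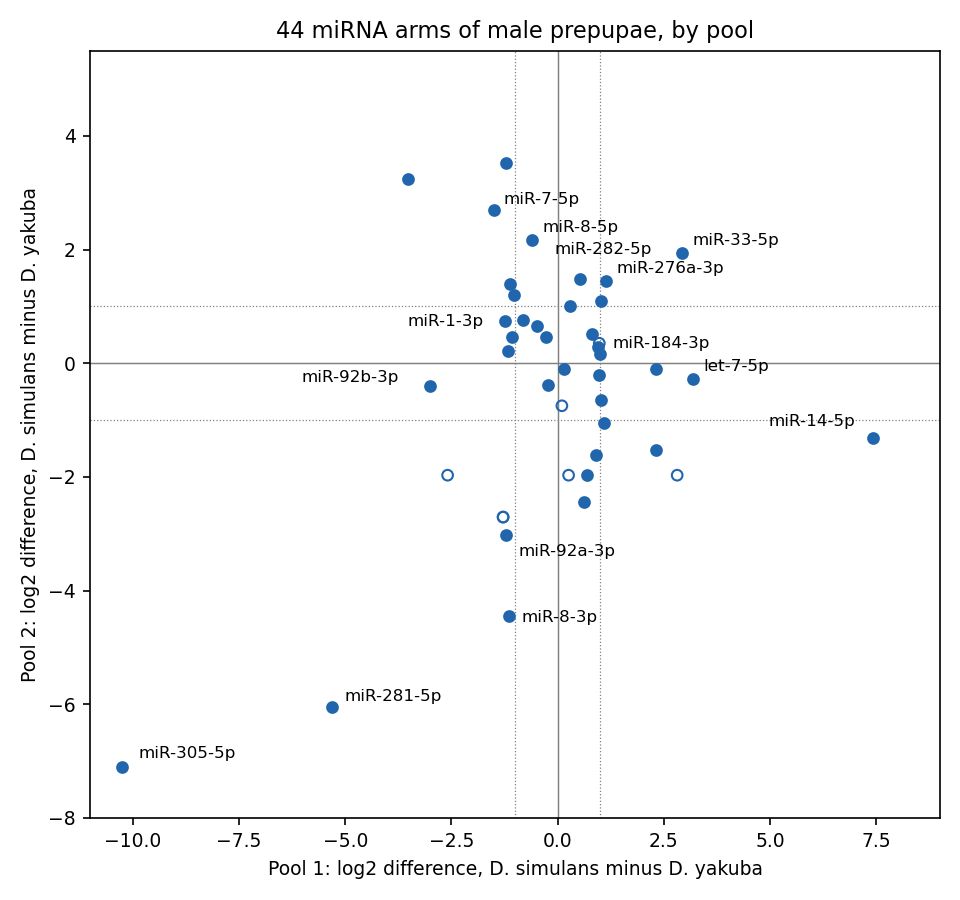
Log2 difference of D. simulans minus D. yakuba male prepupae in pool 1 (x axis) and pool 2 (y axis) for 44 miRNA arms, with dotted lines at 2-fold. Open circles are the 7 arms at or under 3 reads in both libraries of pool 2 (2 of them lie on 1 point), and miR-33-5p and miR-276a-3p lie beyond 2-fold at upper right while miR-8-3p, miR-92a-3p, miR-281-5p and miR-305-5p lie beyond it at lower left.

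The larvae were closer to pool 1 than to pool 2. Over 38 arms with more than 3 larval reads in a species, leaving out miR-305-5p and miR-281-5p, the difference between the species in larvae had the sign of the pool 1 difference in 31 arms and the sign of the pool 2 difference in 18. Larval differences were taken from shares of reads without TMM factors, which shifted the log2 differences by −0.01 in pool 1 and −0.218 in pool 2. Pearson's r across these arms was 0.811 with pool 1 and 0.215 with pool 2, given as a description since arms share their libraries. Among 23 arms of opposite sign in the 2 prepupal pools, larvae sided with pool 1 in 18 and with pool 2 in 5. The larval libraries shared the index pair with pool 1, the preparation pool with pool 2, and the RNA with neither. The pool 2 libraries were also the shallower, and the part of index, preparation pool and depth in these differences was not tested.

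miR-33-5p stood higher in D. simulans in both pools. miR-33 is a regulator of lipid metabolism in flies and mammals, and in the D. melanogaster BDGP6 annotation its hairpin lies at chr3L:19797961-19798059 on the plus strand within SREBP, outside its exons. SREBP encodes a transcription factor of lipid synthesis. The arm had 812 and 52 reads in D. simulans libraries 1 and 2, against 101 and 3 reads in those of D. yakuba. These are 3.6% and 1.09% of the reads in D. simulans and 0.467% and 0.211% in D. yakuba. Both D. simulans libraries lay above both D. yakuba libraries, but only narrowly between library 2 of D. simulans and library 1 of D. yakuba, at 7356 and 6427 TMM-normalised CPM. The ratio was 7.65 in pool 1 (95% counting interval 6.22 to 9.51) and 4.42 in pool 2 (1.43 to 22.1), a mean log2 difference of 2.43. In larvae the arm had 232 reads in D. simulans and 33 in D. yakuba, a ratio of shares of 5.76 (3.99 to 8.57).

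miR-276a-3p was higher in D. simulans by a similar factor in both pools. miR-276a acts in the fly nervous system, where it is known from olfactory memory. It had 806 and 368 reads in D. simulans, against 348 and 34 in D. yakuba. The normalised levels were 48820 and 52050 TMM-normalised CPM in D. simulans and 22140 and 18850 in D. yakuba, so that the 2 libraries of each species lay closer to each other than to the other species. The ratio was 2.21 (1.94 to 2.51) in pool 1 and 2.76 (1.94 to 4.05) in pool 2. Larvae had 122 reads in D. simulans and 39 in D. yakuba, a ratio of shares of 2.56 (1.78 to 3.78). The near-identical paralogue miR-276b-3p, for which the assignment of reads is uncertain, had 35 and 12 reads in D. simulans and 16 and 1 in D. yakuba, with ratios of 2.08 (1.12 to 4.03) and 3.06 (0.453 to 130.9). With RLE scaling, or without the 3 most abundant arms, neither miR-276a-3p nor miR-276b-3p was 2-fold higher in both pools, and miR-33-5p alone was.

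The other arm of the same hairpins had the opposite sign. The 5p reads of miR-276a and miR-276b are identical and could not be assigned to one of them. Together they numbered 34 and 2 in D. simulans, against 79 and 3 in D. yakuba. With these reads divided between both hairpins, the ratio in pool 1 was 0.405, while pool 2 was at the floor of 3 reads in both species and gives no fold. These shared reads account for 2 of the 7 arms counted as lower in D. simulans.

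Arms with a smaller or less even difference in the same direction followed. miR-282-5p had 469 and 611 reads in D. simulans and 310 and 55 in D. yakuba, with ratios of 1.44 (1.25 to 1.67) and 2.84 (2.15 to 3.81), and its libraries overlapped between the species. miR-9a-5p, which limits the number of sense organ precursors, had 299 and 81 reads in D. simulans and 162 and 14 in D. yakuba, and all 4 normalised levels were separated by species. Its ratios were 1.76 (1.45 to 2.14) and 1.48 (0.831 to 2.82), and that of larvae was 1.57 (1.04 to 2.42). miR-317-3p had 45 and 27 reads in D. simulans and 35 and 3 in D. yakuba. Its ratios were 1.22 (0.77 to 1.96) and 2.30 (0.707 to 11.8), with intervals that span 1 in both pools. In all, 6 arms had both D. simulans libraries above both D. yakuba libraries (13.6%) and 7 had both below (15.9%).

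miR-8-3p was lower in D. simulans in both pools. miR-8 supports body growth through insulin signalling in the fat body. It had 308 and 75 reads in D. simulans, against 652 and 420 in D. yakuba. Its share was 1.37% and 1.57% in the D. simulans libraries and 3.02% and 29.6% in the D. yakuba libraries, where library 2 stood apart with the highest share of any arm in that library. The ratio was 0.450 (0.391 to 0.516) in pool 1 and 0.0456 (0.0352 to 0.0584) in pool 2. In larvae it had 50 reads in D. simulans and 162 in D. yakuba, a ratio of shares of 0.253 (0.180 to 0.349). The 5p arm of the same hairpin did not follow, with 364 and 114 reads in D. simulans and 526 and 6 in D. yakuba.

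miR-92a-3p and miR-92b-3p also stood lower in D. simulans. Their hairpins lie close together in D. melanogaster, miR-92a at chr3R:25646506-25646600 and miR-92b at chr3R:25651398-25651497 on the plus strand of BDGP6. Both lie within jigr1, and the second overlaps one of its exons. miR-92a-3p had 26 and 6 reads in D. simulans, against 58 and 13 in D. yakuba, with ratios of 0.427 (0.258 to 0.689) and 0.118 (0.0367 to 0.332). miR-92b-3p had 32 and 63 reads in D. simulans, against 246 and 21 in D. yakuba, with ratios of 0.124 (0.0829 to 0.179) and 0.766 (0.461 to 1.32). For both arms the levels of the D. simulans libraries were below those of the D. yakuba libraries, with a wide gap in one pool only. In larvae the counts were 0 and 3 reads in D. simulans, for miR-92a-3p and miR-92b-3p in that order, against 8 and 27 in D. yakuba. Summed over the 4 arms of this seed (with miR-310-3p and miR-312-3p), D. simulans had 67 and 74 reads and D. yakuba 313 and 35, which is 0.297% and 1.55% against 1.45% and 2.47%.

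**Figure D2:**
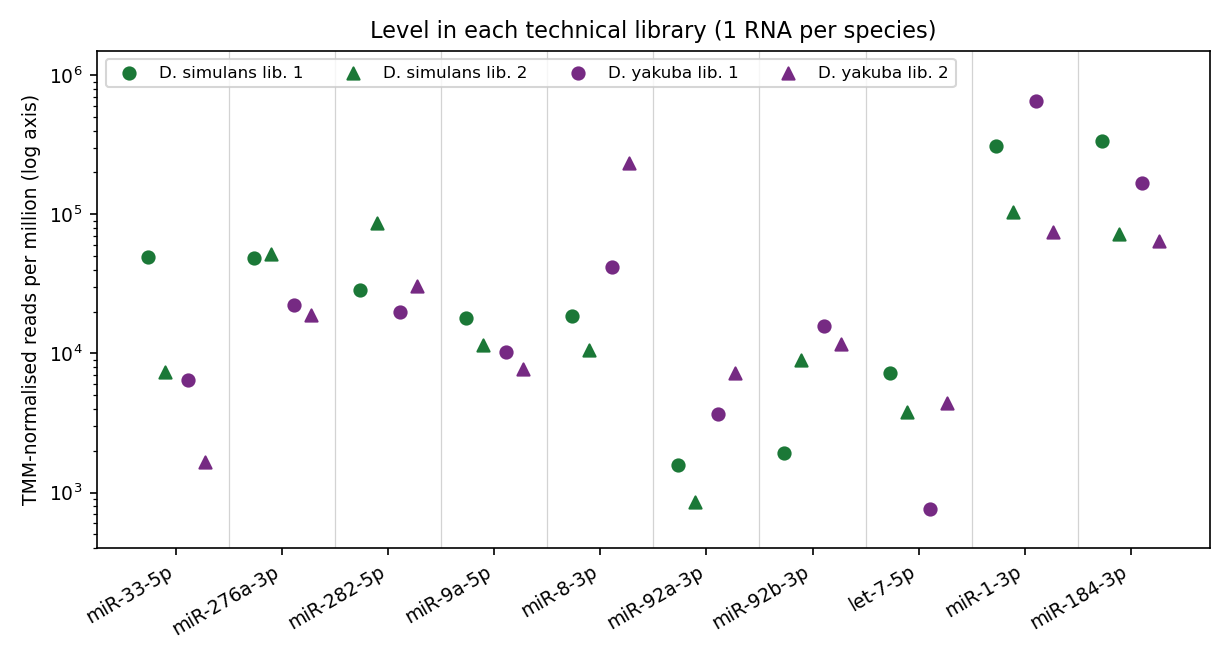
TMM-normalised CPM (log axis) of 10 miRNA arms in the 2 technical libraries of each species, D. simulans in green and left of D. yakuba in purple. miR-33-5p, miR-276a-3p, miR-9a-5p, miR-8-3p, miR-92a-3p and miR-92b-3p are separated by species, whereas miR-1-3p and miR-184-3p differ more between library 1 and library 2 than between species.

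For miR-305 and miR-281 the difference depended on the hairpin record against which reads were counted. miR-305-5p had 0 and 0 reads in D. simulans on the D. simulans hairpin, against 582 and 17 reads in D. yakuba. The annotated arm is 22 bases long in the D. simulans record and 23 bases in the D. yakuba record. When all libraries were counted on D. melanogaster hairpins, the D. simulans libraries held 201 and 33 reads of this arm, against 582 and 17 in D. yakuba, and 200 and 33 of the D. simulans reads matched that form through its first 16 bases. On these hairpins the log2 difference was −1.61 in pool 1 and −0.99 in pool 2, and larvae had 39 reads in D. simulans against 124 in D. yakuba. miR-305 is known from insulin and Notch signalling in the intestine. The 3p arm, with the C10U difference given above, had 48 and 8 reads in D. simulans on its own hairpin but 1 and 0 on that of D. melanogaster, against 21 and 4 in D. yakuba on either. Counted on own-species hairpins, miR-305-3p differed by 1.10 in pool 1 and −1.05 in pool 2.

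miR-281-5p, too, depended on the record. It had 3 and 0 reads in D. simulans on its own hairpin, against 132 and 8 in D. yakuba. On the D. melanogaster hairpins the counts were 202 and 18 in D. simulans and 132 and 8 in D. yakuba, with log2 differences of 0.53 and −0.80. miR-iab-4-5p, encoded in the bithorax complex, completed the 7 arms counted as lower, with 5 and 0 reads in D. simulans and 31 and 0 in D. yakuba. It had no read in pool 2, so its sign there follows from depth and the 0.5 reads added. Of the 7, miR-8-3p and miR-92a-3p were above 3 reads in every library and 2-fold lower in both pools on either set of hairpins.

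**Figure D3:**
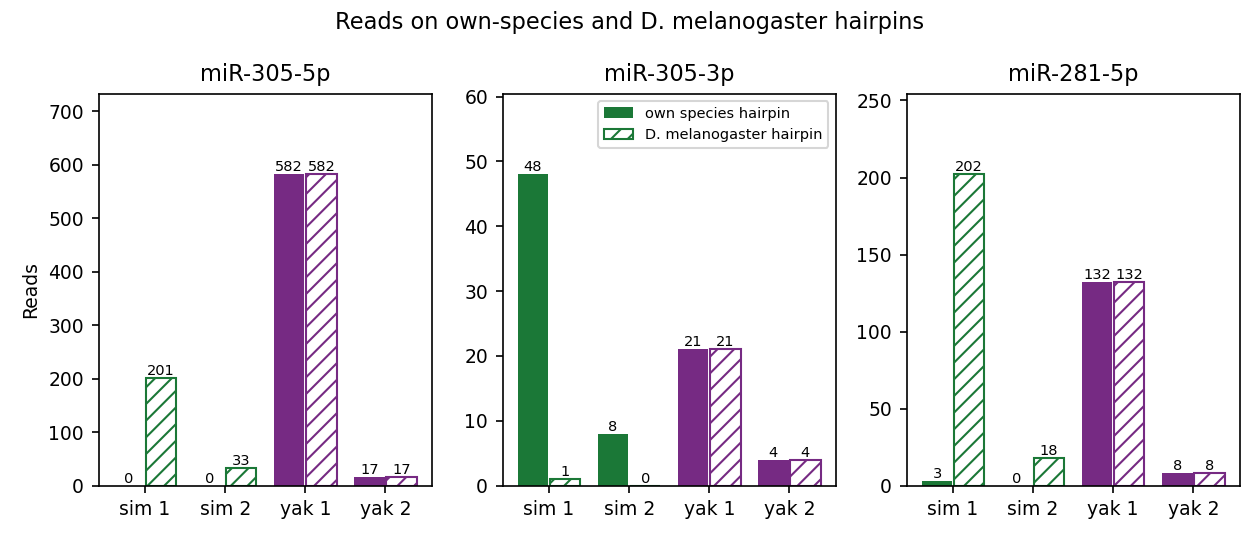
Reads of miR-305-5p, miR-305-3p and miR-281-5p (y axis) in each library, counted on the hairpins of the own species (filled) and of D. melanogaster (hatched), D. simulans libraries left of D. yakuba libraries. For miR-305-5p in library 1 the D. simulans bars stand at 0 reads on its own hairpin and 201 on that of D. melanogaster, while both D. yakuba bars stand at 582.

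The most abundant arms changed order between libraries. The 10 arms with the highest mean share held 87.2% and 83.4% of the reads in D. simulans and 87.6% and 87.2% in D. yakuba. miR-1-3p, the muscle miRNA, held 22.8% and 15.4% in D. simulans, against 47.7% and 9.51% in D. yakuba, so that D. simulans was lower in pool 1 and higher in pool 2. miR-184-3p, known from oogenesis and early development, held 24.6% and 10.7% in D. simulans and 12.3% and 8.24% in D. yakuba. It was 1.99-fold higher in pool 1 (1.90 to 2.08), with an interval that spans 1 in pool 2 (0.916 to 1.38). miR-31a-5p held 18.2% and 11.9% in D. simulans and 9.22% and 11.8% in D. yakuba, and miR-263a-5p, which protects sense organs from cell death, 6.37% and 11.9% against 3.09% and 16.0%. miR-31b-5p held 4.34% and 4.05% in D. simulans and 2.24% and 2.82% in D. yakuba, higher in both pools. Its interval spans 1 in pool 2 (0.877 to 1.79), and its libraries overlapped between the species. miR-10-3p and miR-275-3p had opposite signs in the 2 pools.

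Groups of related miRNAs are described by their arms of the same sign in both pools, to be read against 20.5% higher and 20.5% lower over all 44 arms. Each group's median is set beside the median over all 44 arms of 0.08, both being medians of the mean log2 difference, and none was tested. The let-7 complex (let-7, miR-100 and miR-125, cut from 1 transcript) had 2 arms described, neither of the same sign in both pools, with a median of 1.28. let-7-5p had 119 and 27 reads in D. simulans and 12 and 8 in D. yakuba, with log2 differences of 3.19 in pool 1 and −0.28 in pool 2. miR-125-3p had 179 and 16 reads in D. simulans and 34 and 4 in D. yakuba. Its ratio was 5.01 (3.46 to 7.46) in pool 1 and 1.02 (0.329 to 4.20) in pool 2. Its negative sign in pool 2 follows from the 0.5 reads added. Both D. simulans libraries lay above both D. yakuba libraries for this arm, but in pool 2 only narrowly, at 2263 and 2217 TMM-normalised CPM. miR-125-5p had at most 2 reads in a library. The steroid-linked group adds bantam and the miRNAs miR-8, miR-14 and miR-34. Of its 9 arms, 1 was lower in both pools (miR-8-3p), and its median was 0.42. miR-34-5p had 3 and 20 reads in D. simulans and 7 and 4 in D. yakuba. bantam-3p, of the miRNA that promotes growth and blocks cell death, had 28 and 10 reads in D. simulans and 17 and 14 in D. yakuba.

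The growth and metabolism group had 13 arms, of which 2 were higher (miR-33-5p and miR-184-3p) and 2 lower (miR-8-3p and, on own-species hairpins, miR-305-5p) in both pools, with a median of 0.03. It held 34.1% and 19.8% of reads in D. simulans and 23.6% and 43% in D. yakuba, most of them miR-184-3p and, in D. yakuba library 2, miR-8-3p. The nervous system group had 5 arms, with the 3p arms of miR-276a and miR-276b higher, their 5p arms lower and miR-124-3p (24 and 5 reads in D. simulans, 14 and 5 in D. yakuba) of opposite signs. Of 4 sense organ and photoreceptor arms, 2 were higher in both pools (miR-9a-5p and miR-279-3p), with a median of 0.63. miR-279-3p rests on 13 and 2 reads in D. simulans and 6 and 0 in D. yakuba. The mir-92 and mir-310 group had 3 arms, all lower in both pools, with a median of −1.70, although miR-312-3p had 8 and 4 reads in D. simulans against 9 and 1 in D. yakuba, and its sign in pool 2 follows from the 0.5 reads added. None of the 5 arms of the K box hairpins, which include miR-2b-5p of another seed, had the same sign in both pools (median 0.09). Of the 2 Hox arms miR-iab-4-5p did and miR-10-3p did not, and the muscle and early embryo groups had 1 arm each, of opposite signs. The shared hairpins of the Brd box and ovary-rich groups had no read, and none of the 20 testis-rich hairpins had a record in both species. miR-281-5p was the one arm of the digestive tract group.

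Some arms differed strongly in 1 pool and not in the other. miR-14-5p had 90 and 5 reads in D. simulans and 0 and 3 in D. yakuba. With the 0 in pool 1 set to a floor of 3 reads in that library, it was 28.6-fold higher in D. simulans there. The 95% counting interval of the ratio begins lower, at 22.8. In pool 2 the ratio was 0.425 (0.0828 to 2.74). miR-14 restrains cell death and fat storage, and its 3p arm had 19 and 1 reads in D. simulans and 15 and 1 in D. yakuba. miR-7-5p, of photoreceptor differentiation, had 20 and 114 reads in D. simulans and 55 and 4 in D. yakuba, so that it was lower in pool 1 and higher in pool 2, with counting intervals off 1 on both sides. The same reversal beyond the counting interval was seen for miR-8-5p, miR-263a-5p, miR-10-3p, miR-275-3p and miR-1-3p, 6 arms in all. In the same direction, the interval was off 1 in both pools for 7 arms (15.9%), of which miR-33-5p, miR-276a-3p and miR-282-5p were higher and miR-8-3p, miR-92a-3p, miR-281-5p and miR-305-5p lower in D. simulans.

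A fit across the male samples asked which differences exceed the spread between replicate RNAs. It used the edgeR quasi-likelihood F test on 8 male RNAs in 6 groups, with technical libraries summed. Only the D. melanogaster groups (strain Oregon-R) have a second RNA, so the spread has 2 residual degrees of freedom from that species, and the lone RNAs of D. simulans and D. yakuba are assumed to vary alike. Of 51 arms tested, 0 were higher (0%) and 1 was lower in D. simulans (1.96%) at an adjusted p of 0.05, and 3 had an unadjusted p under 0.05. DESeq2 also called 1 arm. The arm called was miR-305-5p (adjusted p = 0.00297), the one without reads on its own hairpin in D. simulans, and with D. melanogaster hairpins for all libraries its adjusted p was 0.995 and no arm was called. No arm was called with RLE scaling (smallest adjusted p 0.33), without library 1 of D. simulans (0.126), or when any 1 of the 4 male D. melanogaster libraries was left out (0.12 to 0.86).

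No other arm passed. The next smallest adjusted p values were 0.135 for miR-281-5p and 0.297 for miR-14-5p, which had 95 reads in the D. simulans RNA and 3 in that of D. yakuba, a log2 difference of 4.69 ± 1.94 (SE). For miR-33-5p the difference was 2.84 ± 1.73, for miR-276a-3p 1.41 ± 1.64, for miR-8-3p −1.70 ± 1.70 and for miR-92a-3p −1.36 ± 1.62, each with an edgeR adjusted p of 0.906. These values moved when 1 library was left out. For miR-33-5p the difference ran from 0.54 (without D. simulans library 1) to 3.53 (without D. yakuba library 1). For miR-276a-3p the lowest value was 0.47, without either D. yakuba library, and 0.52 without the D. simulans larva or any of 3 D. melanogaster libraries. For miR-8-3p the difference ran from −4.77 (without D. yakuba library 1) to −1.34, and for miR-92a-3p from −3.33 (without D. yakuba library 1) to −0.98. For both it was −2.58 and −2.24, in that order, without the D. simulans larva or any of the same 3 D. melanogaster libraries. miR-14-5p ran from 0.35 without D. yakuba library 1 to 8.62 without D. yakuba library 2. None of these was past the threshold. For let-7-5p it was 2.64, and without D. yakuba library 1 it turned to −0.44. The standard errors span several-fold changes, so a missing call here does not show that the species are alike.

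Arm usage, the share of a hairpin's reads on its 5p arm, does not depend on library scaling. Of 21 hairpins with at least 5 reads in every library, 13 had a difference of the same sign in both pools. For miR-276a the 5p arm held 2.07% and 0.271% of reads in D. simulans, against 10.2% and 4.23% in D. yakuba, so both D. simulans libraries were below both D. yakuba libraries. The library 2 shares rest on 1 read in D. simulans and 1.5 in D. yakuba. All these 5p reads are identical to those of miR-276b and were divided between the hairpins. For miR-8 it held 54.2% and 60.3% in D. simulans, against 44.7% and 1.41% in D. yakuba, where library 2 stood apart. The 5p share of let-7 was 99.2% and 100% in D. simulans and 85.7% and 88.9% in D. yakuba, but D. yakuba had only 2 and 1 reads on the 3p arm. That of miR-125 was 0.556% and 0% in D. simulans and 5.56% and 20% in D. yakuba, again on 2 and 1 reads of the minor arm. miR-305 differed most, but through its hairpin record. Signs for hairpins with no read on 1 arm, such as miR-184, miR-31a and miR-31b, follow from depth and the 0.5 reads added. Of 12 hairpins in the limma fit, 0 were called (0%) and 0 had an unadjusted p under 0.05. The log2 difference of 5p over 3p was −2.78 ± 1.86 for miR-276a and 1.33 ± 1.86 for miR-8, each with a limma adjusted p of 0.667.

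**Figure D4:**
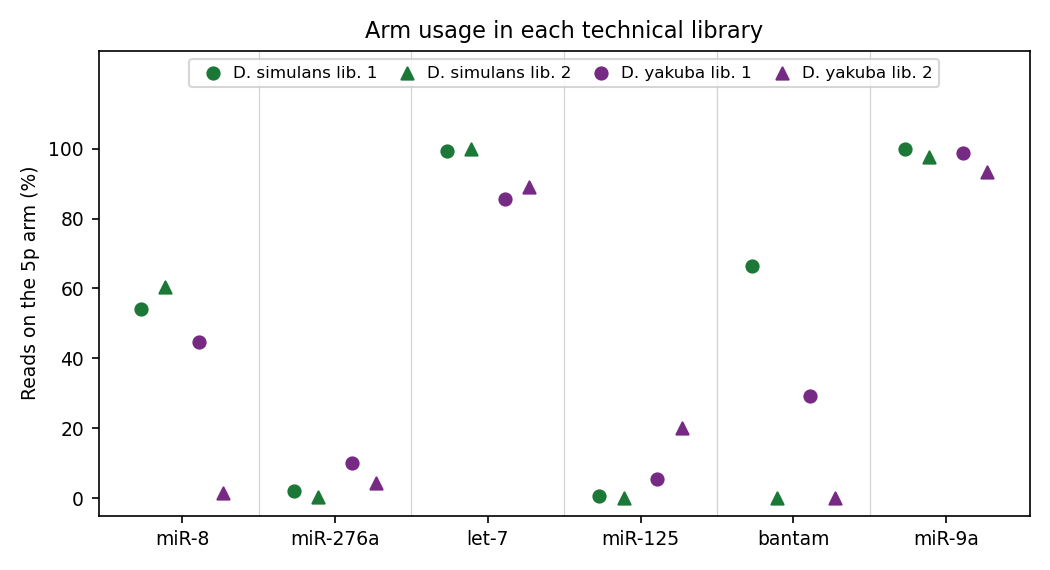
Share of reads on the 5p arm (y axis, %) for 6 hairpins in the 2 technical libraries of each species, D. simulans in green left of D. yakuba in purple. For miR-276a, let-7 and miR-125 the libraries separate by species, on few reads of the minor arm (for miR-276a in library 2). For miR-8 D. yakuba library 2 lies at 1.41% while the other 3 lie between 44.7% and 60.3%.

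The 5′ end of reads was almost always the same in both species. Of 13 arms with at least 10 reads in every library, the usual start held between 88.9% and 100% of reads. miR-184-3p began there in 88.9% and 98.4% of D. simulans reads, against 99.9% and 100% of D. yakuba reads. It was the 1 arm of 8 in the limma fit (12.5%) past the threshold, with a logit (natural log) difference of −4.84 ± 1.32 and an adjusted p of 0.0165. The deviating reads in D. simulans library 1, 613 of 5545 (11.1%), all began 1 base later. In D. simulans library 2 the 8 deviating reads of 514 (1.56%) began 2 bases later. That library has the index ACTG, and in the other 2 libraries with this index, of male D. melanogaster larvae, starts 2 bases late made up 0.763% and 1.46%. The base at which the deviating reads began thus moved with an index in both pools.

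Starts 1 base late moved with the index for some arms, and its part in the difference between species was not tested. Reads of miR-184-3p starting 1 base late made up 3.27% to 11.1% in the 3 libraries of the series with the index GACT (D. simulans prepupae, D. simulans larvae and female D. melanogaster prepupae) and at most 0.0753% in the 9 others. miR-263a-5p and miR-282-5p did not separate by index. The first was at 0% to 0.0401% with GACT against at most 0.441%, and the second at 2.08% to 9.38% against at most 3.64%. The 3.64% was 2 of 55 reads in D. yakuba library 2. Late starts of miR-8-3p made up 3.9% in D. simulans library 1, but none was seen in the other 2 GACT libraries among 50 and 33 reads. miR-1-3p, miR-275-3p and miR-31a-5p did separate by index. For miR-1-3p the range was 0.83% to 3.87%, against at most 0.218%, and for miR-275-3p it was 3.95% to 12.1%, against at most 0.415%. For miR-31a-5p the gap was narrow, with 0.832% to 2.36% against at most 0.602%. Among the GACT libraries, miR-184-3p was at 11.1% and 9.12% in D. simulans prepupae and larvae, against 3.27% in female D. melanogaster prepupae. The order was the same for miR-1-3p (3.37% and 3.87% against 0.83%), miR-275-3p (8.06% and 12.1% against 3.95%) and miR-282-5p (9.38% and 5.56% against 2.08%). It was not for miR-31a-5p (2.36% and 0.832% against 0.894%) or miR-263a-5p (0% and 0% against 0.0401%). D. simulans library 1 had the lowest share at the usual start for 10 of the 13 arms. Without it the adjusted p of miR-184-3p was 0.331, and with library number as a block no arm was called (0.125). Nor was one without D. yakuba library 1 (0.22), or without 1 of 3 of the male D. melanogaster libraries (0.0535 to 0.0567). In percentage points 7 of the 13 arms had the same sign in both pools. After miR-184-3p the next was miR-92b-3p, at 96.9% and 96.8% of 32 and 63 reads in D. simulans. In D. yakuba it was at 99.6% and 100% of 246 and 21 reads, so few reads deviated. miR-31a-5p, miR-1-3p and miR-31b-5p followed. Each of these arms, miR-92b-3p included, was within 4 percentage points in both pools. On the logit scale of the fit, with 0.5 reads added, miR-31a-5p, miR-1-3p and miR-31b-5p had opposite signs in the 2 pools.

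Read lengths differed between libraries of 1 species. Of miR-276a-3p reads, 93.8% and 95.9% were 21 bases or longer in D. simulans, against 33.6% and 100% in D. yakuba, where the second value rests on 34 reads (interval 89.7% to 100%). Of miR-305-5p reads on D. melanogaster hairpins, 31.8% and 45.5% were that long in D. simulans, against 29.2% and 82.4% in D. yakuba. Library 1 of D. yakuba stood apart for miR-276a-3p and library 2 for miR-305-5p. Over all shared arms, reads of 18 or 19 bases were 1.17% and 0.920% in D. simulans and 3.65% and 0.705% in D. yakuba. The mean read length of 13 arms was greater in D. simulans in 8 of them in pool 1 and in 6 in pool 2, and in both pools in 3 (miR-1-3p, miR-263a-5p and miR-8-3p, each by at most 0.23 bases). The short form of miR-276a-3p printed above for D. yakuba is that of library 1.

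**Figure D5:**
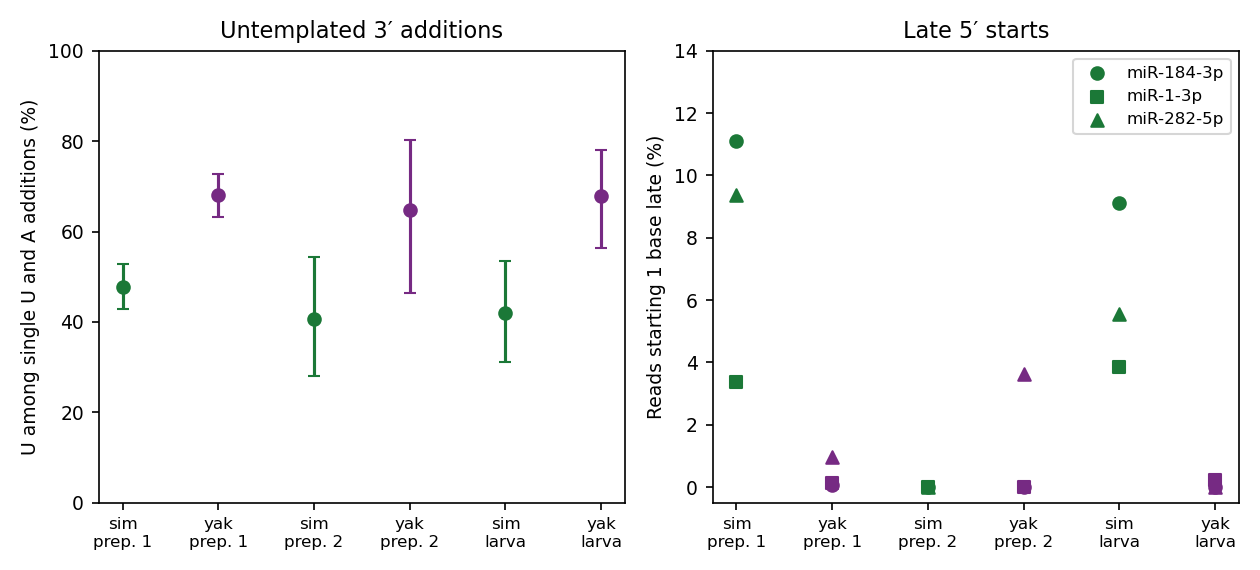
Left, share of U among single untemplated U and A additions (%, with exact 95% intervals), and right, share of reads starting 1 base late (%) for 3 arms, in prepupal and larval libraries of D. simulans (green) and D. yakuba (purple). U made up 47.8% and 40.7% in D. simulans prepupae against 68.1% and 64.7% in D. yakuba prepupae, and late starts of miR-184-3p reach 11.1% and 9.12% in the D. simulans prepupal and larval libraries with the index GACT.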

How the data were processed

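The deposited alignment texts give, per the file headers, whole-number counts of every distinct read sequence on the hairpins of miRBase release 15. The deposited summary table gives expected counts per arm, whose fractions, judged from the values, divide reads among matching loci. Bowtie 0.12.5 is named in the submitters' processing notes, and neither kind of file is normalised. In the summary table, 8 columns of other libraries were not used. Per the labels' protocols, RNA of 16 to 28 bases was selected and amplified over 10 PCR cycles. Reads were summed per arm from the texts, each counted once over the copies of a miRNA and divided evenly among arms that shared it. As a separate check, reads were summed per hairpin and divided by their matching loci. Of 844 summary cells of the prepupal libraries, 834 (98.82%) lay within 1 read of the sums of that check.

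Members and lists were chosen with earlier results of these data known. Differences within a pool used TMM factors (edgeR 4.0.16) and exact 95% counting intervals, with no test, since each species has 1 RNA. Named arms were the 12 in each direction with the largest mean difference among those 2-fold in both pools, the 10 with the highest mean share, those called or with the 5 smallest p values, at most 4 per list, a fixed set of 9 arms, and the 5 largest same-signed differences in arm and start use. Fits used edgeR with filterByExpr, DESeq2 1.42.0 and limma 3.58.1 with Benjamini-Hochberg adjustment, and were tested on simulated data. SE of edgeR values was taken from the F statistic. Reads carry no molecular identifiers, so intervals cover counting error only. The labels put same-numbered prepupal libraries of D. simulans and D. yakuba in 1 pool, which does not extend to D. melanogaster. Deviations of same-numbered libraries correlated at 0.0605 over the 44 arms.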

Additional observations from a re-analysis of the deposited data

Results flagged for a closer look

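The alignments also list reads with untemplated bases added to the 3′ end, which enter no level given above. They numbered 439 and 74 in D. simulans and 408 and 39 in D. yakuba. Among single U and A additions, U made up 47.8% and 40.7% in D. simulans (exact 95% intervals 42.8% to 52.9% and 28.1% to 54.3%), against 68.1% and 64.7% in D. yakuba (63.2% to 72.7% and 46.5% to 80.3%). In larvae U made up 42.0% in D. simulans and 67.9% in D. yakuba, and in the male D. melanogaster prepupae it made up 45.5% and 46.1%. The D. simulans value was thus the lower one in both pools and in larvae, and the intervals did not overlap in pool 1 and in larvae. On the miR-1 hairpin alone U made up 59% and 50% in D. simulans, against 77.6% and 100% in D. yakuba, the last on 6 reads. On all other miRNAs it made up 29.8% (22.6% to 37.8%) and 31% (15.3% to 50.8%) in D. simulans and 35.2% (25.3% to 46.1%) and 57.1% (37.2% to 75.5%) in D. yakuba, and in larvae 20.6% (8.7% to 37.9%) in D. simulans and 42.9% (17.7% to 71.1%) in D. yakuba. Without miR-1, which held 311 of the 408 additions in D. yakuba library 1, the intervals overlapped in both pools and in larvae. On the miR-184 hairpin no single U was listed in any of these libraries, against 55 and 6 additions of A in D. simulans and 17 and 1 in D. yakuba. An added base equal to the next base of the hairpin is not listed as untemplated. The absence of U there therefore does not show that none was added. With 1 RNA per species the difference in the share of U was not tested.

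miR-282-5p was higher in D. simulans in both prepupal pools but not in larvae, where it had 54 reads in D. simulans and 45 in D. yakuba, a ratio of shares of 0.984 (0.65 to 1.5). The difference between stages was not tested.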

How the results depend on the processing

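The count of 18 same-signed arms of 44 lay between 12 and 21 under every alternative but a minimum of 1 read (42 of 86). The 12 were of 27 arms, with 100 reads, and the 21 of 44, with unscaled shares of reads. The 3 arms at least 2-fold higher became 1 with RLE scaling (of 44), without the 3 most abundant arms (of 41), or without arms of several loci (of 33). The 7 lower became 21 of 86 with a minimum of 1 read. They became 4 with 100 reads (of 27), without arms of several loci (of 33), or without arms at or under 3 reads in a pool (of 37). The last alternative was chosen after seeing the data. Single pools gave 10 to 11 higher and 15 to 16 lower. edgeR called 1 arm, but 0 with RLE scaling or D. melanogaster hairpins and 0 to 1 with a library left out. With a replicate block by library number, technical libraries kept separate, it called 2 (miR-305-5p and miR-281-5p). That fit counts the 2 libraries of 1 RNA as replicates, and a library number stands for another pool in D. melanogaster. Both calls rest on own-species hairpin records. With 1 library left out, the edgeR log2 difference ran from −0.44 to 3.02 for let-7-5p and from −2.29 to 0.81 for miR-1-3p, both turning without D. yakuba library 1. For miR-184-3p it ran from −0.89 (without D. simulans library 1) to 1.46, with −0.09 without D. yakuba library 2. None of the turned values passed the threshold. Arm usage calls numbered 1 at 10 reads in every sample (miR-305), 0 with the replicate block and 0 to 5 with a library left out, the 5 without D. yakuba library 1. Start use calls numbered 0 with the replicate block and 0 to 2 with a library left out. The arm usage calls without D. yakuba library 1 were miR-1, miR-184, miR-31a, miR-31b and miR-8. Of these, all but miR-8 had no read on 1 arm in any prepupal library of either species. Their log2 difference of 5p over 3p follows from depth and the 0.5 reads added, so these calls show no difference in arm usage. The miR-305 call rests on its own-species hairpin record. The cause of the changes between settings was not tested. D. yakuba library 2, with 1419 reads, limits pool 2, and 7 arms were there at or under 3 reads in both species.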
